A study of Mus musculus with 4 samples.

Results

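The replication-dependent histone genes were taken by symbol, as every row named H1f1 to H1f6 or with a number in the H2ac, H2bc, H3c or H4c series. This gave 64 of the 22266 rows of the deposited table: 6 of linker histone H1, 17 of H2A, 17 of H2B, 12 of H3 and 12 of H4. On the mouse build GRCm38, 54 rows lay on chromosome 13 between positions 21715763 and 23934851, and 10 lay on chromosome 3 between 96219865 and 96270132. The rule itself reads names and not values.

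RNA was measured in female mouse embryonic stem cells derived from the PGK12.1 line, grown on gelatin with serum and leukemia inhibitory factor. All 4 libraries came from the line labelled CBX2fl/fl-HaloTag, in which Cbx2, a Polycomb chromobox gene, is floxed and carries the HaloTag protein tag, so the controls carry this allele too. In the EtOH group (2 libraries, day 0, genotype label Wildtype) the cells were given ethanol, and in the OHT group (2 libraries, day 2, genotype label Knockout) they were given 4-hydroxytamoxifen at 1 µM for 48 hours. All 4 libraries carry the batch label 2. No library analysed here combines the drug with an intact Cbx2 gene, so the drug, the day and the deletion cannot be told apart, and the labels do not name the recombinase or say whether the line is a single clone. Whether replicates were separate cultures is not stated in the labels, so the p-values reflect only how these libraries scatter, which may be technical.

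Replication-dependent histone mRNAs encode the bulk of the proteins that package DNA, and cells make them mainly in S phase, when the genome is copied. Unlike other mRNAs of animal cells they normally end not in a poly(A) tail but in a short stem-loop, which the stem-loop binding protein (SLBP) holds and next to which the U7 small nuclear ribonucleoprotein guides the cut. Some of these genes can also yield polyadenylated transcripts that run past the stem-loop. The libraries were made by poly(A) selection, which retains RNA with a tail, so the values below describe the histone RNA captured in that way and not the total histone mRNA of the cells.

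The unit of all values is TPM, in which reads are corrected for transcript length and each library sums to 1000000. Depth is not recorded in this unit, so no counting interval or detection limit is given. Differences were tested with limma on log2(TPM + 1) over the 12029 genes whose mean reached 1 TPM, with Benjamini-Hochberg adjustment over that whole set. Cbx2 itself stood at 2.29 and 2.71 TPM in the EtOH and 0.749 and 1.14 TPM in the OHT libraries, a log2 difference of -0.85 with a limma adjusted p of 0.265. All 12 markers of mouse embryonic stem cells were expressed, at means of 53.5 to 5514 TPM. They summed to 10070 and 10010 TPM in the EtOH and 12890 and 11690 TPM in the OHT libraries. Of these 12, 7 were higher and 2 lower in both OHT libraries, beside 23.1% and 19.4% of all tested genes. Their median log2 fold change was 0.19, and 0.10 without OHT replicate 2. Of 12 fibroblast and feeder markers 2 passed the minimum, and the list summed to 24.6 and 25.4 TPM in the EtOH and 31.1 and 39.0 TPM in the OHT libraries. Most of that sum was Fbln1 and Thy1, while Col1a1 was at most 0.777 TPM and Postn was listed at 0 in every library. The part of these cells in the histone values was not tested. The 15 early differentiation markers summed to 249 and 245 TPM in the EtOH and 220 and 229 TPM in the OHT libraries, and Tubb3 made up most of that. Without Tubb3 they summed to 54.3 and 52.5 TPM in the EtOH and 59.8 and 64.2 TPM in the OHT libraries. Of the 9 tested, 6 were higher and 2 lower in both OHT libraries, beside 23.1% and 19.4% of all tested genes. While 0 passed the limma threshold, 3 were higher and 2 lower at an unadjusted p under 0.05, beside 6.02% and 4.46% of all tested genes. The median log2 fold change of these 9 markers was 0.27, and 0.13 without OHT replicate 2. Their part in the histone values was not tested.

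The stem-loop is shown first because it separates this family from other mRNAs. In the annotated transcripts of GENCODE mouse release 21 (GRCm38), a 16-base stem-loop was searched for after the stop codon, with the loop in capitals. The search asked for a stem of 6 base pairs beginning GG and ending CC around a 4-base loop. It also required a T-A pair next to the loop and a loop that begins with T, so these letters are the same in every match. The stem-loop was found in 43 of the 64 genes, in 8 spellings, and no match in the others says only that this pattern is not in the annotated transcript. The first spelling below was found in 24 genes of H1, H2A, H2B and H3. The next was found in 6 genes of H1, H2B and H3, and the following pair in 1 gene each. The last 4 spellings belonged to H4 genes, 6, 2, 2 and 1 of them in order.
H2ac7 at chr13:23574895-23574910, plus strand: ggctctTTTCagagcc
H2bc12 at chr13:22036300-22036315, plus strand: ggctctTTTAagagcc
H2ac20 at chr3:96220418-96220433, minus strand: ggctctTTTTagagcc
H3c8 at chr13:23535889-23535904, plus strand: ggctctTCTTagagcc
H4c8 at chr13:23531458-23531473, plus strand: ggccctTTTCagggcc
H4c9 at chr13:22040966-22040981, minus strand: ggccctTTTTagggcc
H4c2 at chr13:23757366-23757381, plus strand: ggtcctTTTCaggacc
H4c1 at chr13:23760800-23760815, minus strand: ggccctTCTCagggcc

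Summed by class, histone RNA was higher in both OHT libraries than in both EtOH libraries for H1, H2B, H3 and H4, and the H2A sums overlapped. Class sums are described here with no p-value because 2 against 2 libraries cannot give an exact two-sided permutation p below 0.333. H1 summed to 16.3 and 16.6 TPM in the EtOH and 31.4 and 26.5 TPM in the OHT libraries. H2B summed to 56.2 and 63.5 TPM in the EtOH and 101 and 93.5 TPM in the OHT libraries. H3 summed to 41.2 and 44.5 TPM in the EtOH and 75.0 and 67.2 TPM in the OHT libraries. In these 3 classes the gap between the groups was larger than the spread inside either group, with group means of 16.5 ± 0.236 against 29.0 ± 3.45 TPM for H1, 59.9 ± 5.11 against 97.2 ± 5.29 TPM for H2B and 42.8 ± 2.38 against 71.1 ± 5.49 TPM for H3 (SD, n = 2 each). The ratios of OHT to EtOH means were 1.76, 1.62 and 1.66.

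H4 was nearer to overlap. Its rows summed to 49.6 and 42.6 TPM in the EtOH and 66.8 and 53.7 TPM in the OHT libraries, or 46.1 ± 4.96 against 60.3 ± 9.23 TPM (SD, n = 2 each), a ratio of 1.31. After rescaling the libraries by the median of ratios or by quantiles, the lower OHT value (48.2 and 47.2) lay below the higher EtOH value (50.9 and 52.2). H2A summed to 2803 and 2643 TPM in the EtOH and 3527 and 2564 TPM in the OHT libraries, so the second OHT library lay below both EtOH libraries. Its ratio was 1.12 (log2 0.16), and without OHT replicate 1 the log2 ratio was -0.09.

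**Figure D1:**
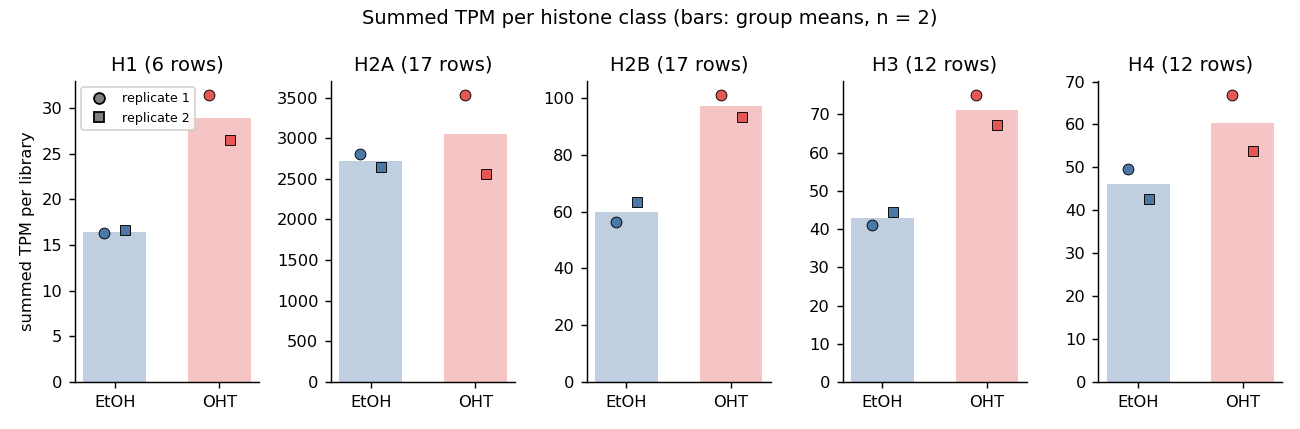
Summed TPM of the rows of each histone class in each library (points; circles replicate 1, squares replicate 2), with bars at the group means of 2 libraries and a separate linear axis from 0 for each class. H1, H2B, H3 and H4 points do not overlap between EtOH and OHT, while the H2A points do (2803 and 2643 against 3527 and 2564 TPM).

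The H2A class held most of the histone RNA in these libraries, and most of that came from H2ac24 and H2ac12. Together this pair took 91.3% and 90.8% of the summed histone TPM in the EtOH and 87.1% and 86.6% in the OHT libraries. All 64 rows together made up 0.297% and 0.281% of all TPM in the EtOH and 0.38% and 0.28% in the OHT libraries. Without the pair, the other 62 rows summed to 257 and 259 TPM in the EtOH and 491 and 375 TPM in the OHT libraries, a ratio of 1.68. The other H2A rows alone summed to 94.0 and 91.5 TPM in the EtOH and 217 and 134 TPM in the OHT libraries, a ratio of 1.89. That difference rested on H2ac7: without it, the remaining 14 H2A rows summed to 69.0 and 64.3 TPM in the EtOH and 99.6 and 55.6 TPM in the OHT libraries, which overlap, with a ratio of 1.16. The difference of the H2B class likewise rested on H2bc4: without that row the log2 ratio of the H2B sums was 0.13 in place of 0.70, and without H2bc4 and H2bc12 it was -0.09. Without H2ac24, H2ac12, H2ac7 and H2bc4, the other 60 histone rows summed to 205.3 and 204.6 TPM in the EtOH and 309.8 and 238 TPM in the OHT libraries, a ratio of 1.34.

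Row by row, none of the 44 histone rows tested passed the threshold of an adjusted p of 0.05 in limma, against 5 of the 12029 genes tested (0.0416%). Unadjusted limma p-values were under 0.05 for 14 histone rows that were higher with OHT, where 6.02% of all genes were, and for 2 that were lower, where 4.46% of all genes were. The log2 fold change was positive in 32 of the 44 rows (54.0% of all genes tested), with a median of 0.36 beside 0.02 over all genes. The histone rows also scattered more between replicates than all tested genes did. Across rows, the SD of EtOH replicate 1 minus replicate 2 on the log2(TPM + 1) scale was 0.729, beside 0.178 over all tested genes. For OHT replicate 1 minus replicate 2 it was 0.705, beside 0.348. The part of this scatter in the counts of histone rows was not tested. The counts depended on single libraries. Past the adjusted threshold there were 4 of the 44 rows without EtOH replicate 1, 3 without EtOH replicate 2, 14 without OHT replicate 1 and 17 without OHT replicate 2, where 0.382%, 0.283%, 24.6% and 20.6% of all genes passed in the same fits. In the same order of libraries left out, the unadjusted higher count was 8, 9, 15 and 23 of 44, beside 1.45%, 1.4%, 32.3% and 11.2% of all genes. The unadjusted lower count was 5, 2, 6 and 6 of 44, beside 1.26%, 1.06%, 10.4% and 26.0% of all genes.

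Over all 64 rows, whatever their level, both OHT values lay above both EtOH values in 22 rows (34.4%) and below both in 6 rows (9.38%). The background was 17.2% and 14.6% of all 22266 rows. It was 21.6% and 18.3% of the 17757 rows above 0 in a library. By class, the rows higher in both OHT libraries were 5 of 6 for H1, 4 of 17 for H2A, 5 of 17 for H2B, 5 of 12 for H3 and 3 of 12 for H4, and the rows lower in both were 2 of H2A, 3 of H2B and 1 of H3. H1 was thus the class with the highest share on the upper side and H2A the class with the lowest. The median log2 fold changes of the tested rows were 0.70 for 3 H1 rows, 0.05 for 13 H2A rows, 0.03 for 9 H2B rows, 0.60 for 10 H3 rows and 0.38 for 9 H4 rows.

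**Figure D2:**
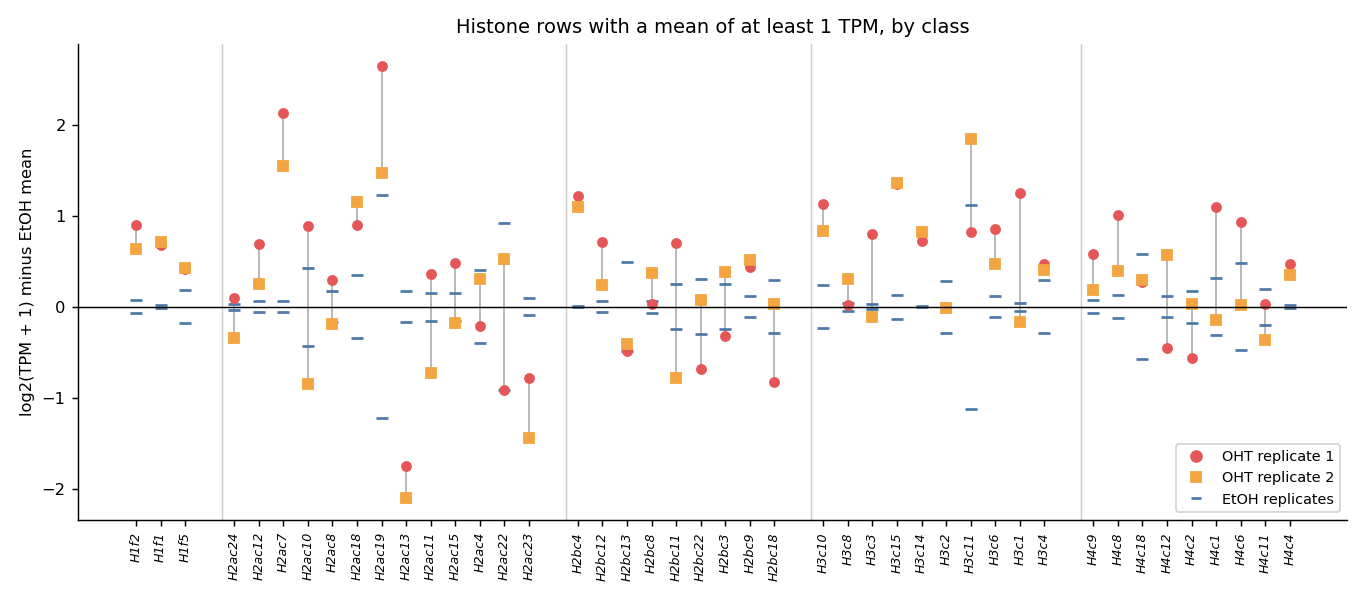
Difference of each OHT library from the EtOH mean on the log2(TPM + 1) scale for the 44 histone rows with a mean of at least 1 TPM, ordered by class and mean TPM, with dashes for the EtOH libraries themselves. All 3 H1 rows and most H3 rows lie above 0 in both OHT libraries, and the H2A rows spread widely on both sides, from 2.06 for H2ac19, listed at 0 in EtOH replicate 1, to -1.92 for H2ac13 in log2 fold change.

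Linker histones of the H1 class bind DNA where it enters and leaves the nucleosome. H1f2 was the main H1 row, with 11.5 and 12.9 TPM in the EtOH and 23.7 and 19.5 TPM in the OHT libraries (log2 fold change 0.77, SE 0.17, limma adjusted p = 0.265). H1f1 stood at 2.16 and 2.09 TPM in the EtOH and 4.01 and 4.12 TPM in the OHT libraries, and its limma adjusted p was 0.280. H1f5 stood at 1.29 and 0.777 TPM in the EtOH and 1.69 and 1.70 TPM in the OHT libraries. In all 3 the groups did not overlap. Under 1 TPM, H1f4 (0.233 and 0.447 against 1.26 and 0.835 TPM) and H1f3 (0.102 and 0.119 against 0.428 and 0.162 TPM) were also higher in both OHT libraries. H1f6, the testis linker histone, read 0.977 and 0.337 TPM in the EtOH and 0.359 and 0.220 TPM in the OHT libraries, which overlap. Of the 31-base words of the H1f2 transcript 11.4% also occur in transcripts of other genes. This share was 3.9% for H1f5, 0.3% for H1f1, 3.7% for H1f3, 0% for H1f6 and 34.7% for H1f4. Some core histone rows also had low shares, such as H2bc21 with 2.8% and H4c14 with 2.6%.

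H2A pairs with H2B in the nucleosome core. The H2A rows had the highest and some of the lowest values of the family. H2ac24 stood at 1768 and 1688 TPM in the EtOH and 1851 and 1358 TPM in the OHT libraries, and these overlap (log2 fold change -0.12, limma adjusted p = 0.833). H2ac12 stood at 941 and 864 TPM in the EtOH and 1459 and 1072 TPM in the OHT libraries, higher in both OHT libraries (log2 fold change 0.47, limma adjusted p = 0.387). H2ac7 stood at 25.05 and 27.2 TPM in the EtOH and 118 and 78.3 TPM in the OHT libraries. This was the largest fold change on the higher side among the 12 members given in full, at 1.84 on the log2 scale (SE 0.20), with a limma adjusted p of 0.0878. Both OHT values of H2ac7 exceeded the EtOH values by far more than the spread of the EtOH pair, although the OHT pair itself lay apart. H2ac7 also shares sequence with the far more abundant H2ac12. Of the words of the H2ac7 transcript 60.9% occur in H2ac12, and of those of H2ac12 88.0% occur in H2ac7. The values of H2ac7 are small beside those of H2ac12, and the division of reads between H2ac7 and H2ac12 was not tested.

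The neighbours of H2ac7 in level did not behave alike. H2ac10 stood at 28.4 and 15.2 TPM in the EtOH and 39.3 and 11.1 TPM in the OHT libraries. H2ac8 stood at 12.01 and 15.5 TPM in the EtOH and 16.9 and 11.8 TPM in the OHT libraries. Both overlapped between groups, and H2ac10 varied more inside each group than between the group means. H2ac18 stood at 9.07 and 5.21 TPM in the EtOH and 13.7 and 16.5 TPM in the OHT libraries (log2 fold change 1.02, limma adjusted p = 0.307). H2ac19 was listed at 0 in EtOH replicate 1 and stood at 4.49 TPM in EtOH replicate 2, against 13.7 and 5.49 TPM in the OHT libraries. Every 31-base word of these transcripts on chromosome 3 occurs in another gene, so their reads could be divided either way. The words of H2ac18 also all occur in a gene with no row in the deposited table, which a sum of these rows leaves out. Summed, H2ac18 and H2ac19 gave 9.07 and 9.69 TPM in the EtOH and 27.4 and 22.04 TPM in the OHT libraries, a ratio of 2.64, and the EtOH sums lay closer together than the EtOH values of either row did.

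H2ac13 and H2ac23 were the H2A rows lower in both OHT libraries. H2ac13 stood at 8.35 and 10.8 TPM in the EtOH and 2.13 and 1.45 TPM in the OHT libraries (log2 fold change -1.92, SE 0.22, limma adjusted p = 0.0995). H2ac23 had 1.54 and 1.88 TPM under EtOH. It had 0.579 TPM in OHT replicate 1 and was listed at 0 in OHT replicate 2 (log2 fold change -1.11, SE 0.25, limma adjusted p = 0.266). Both share most of their sequence with the abundant pair: 84.8% of the 31-base words of H2ac13 occur in H2ac12, and 93.8% of those of H2ac23 occur in H2ac24. The sum of H2ac13 and H2ac12 was 949 and 875 TPM in the EtOH and 1461 and 1073 TPM in the OHT libraries, so the lower values of H2ac13 are small beside the values of the gene it shares its words with. The division of reads within these pairs was not tested.

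Among the remaining tested H2A rows, all overlapped between groups. H2ac11 stood at 3.86 and 2.94 TPM in the EtOH and 4.63 and 1.65 TPM in the OHT libraries. H2ac15 stood at 3.06 and 2.27 TPM in the EtOH and 4.07 and 2.23 TPM in the OHT libraries. H2ac4 stood at 0.897 and 2.30 TPM in the EtOH and 1.16 and 2.10 TPM in the OHT libraries. In H2ac22 replicate 1 of each group was listed at 0, and replicate 2 stood at 2.57 TPM with EtOH and 1.71 TPM with OHT. The 4 H2A rows under 1 TPM, led by H2ac20, H2ac6 and the testis gene H2ac1, also overlapped and reached at most 1.97 TPM in a library.

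In the H2B class H2bc4 took 47.9% and 42.3% of the sum with EtOH and 63.3% and 62.6% with OHT. It stood at 26.96 and 26.9 TPM in the EtOH and 63.9 and 58.5 TPM in the OHT libraries. The log2 fold change was 1.16 (SE 0.12), and its limma adjusted p of 0.0699 was the smallest of the family. The group means of 26.9 ± 0.0758 and 61.2 ± 3.83 TPM (SD, n = 2 each) lay apart by several times either spread. H2bc4 is also unusual in its annotation: its longest transcript has 1156 bases in 2 exons, no stem-loop was found in it, and 34.5% of its 31-base words are shared with other genes.

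Other H2B rows were lower in level. H2bc12 stood at 9.34 and 10.3 TPM in the EtOH and 16.7 and 11.7 TPM in the OHT libraries. H2bc9 stood at 1.38 and 1.03 TPM in the EtOH and 1.98 and 2.12 TPM in the OHT libraries. Both were higher in both OHT libraries, with limma adjusted p-values of 0.507 and 0.436. H2bc13 stood at 2.81 and 6.49 TPM in the EtOH and 2.82 and 3.02 TPM in the OHT libraries, and EtOH replicate 2 stood apart from the other libraries. Its log2 fold change was -0.45 with an SE of 0.33 (limma adjusted p = 0.698), and it was 0.04 without that library. H2bc18 stood at 1.08 and 2.10 TPM in the EtOH and 0.428 and 1.60 TPM in the OHT libraries (log2 fold change -0.40, SE 0.34, limma adjusted p = 0.748, and 0.03 without OHT replicate 1). H2bc22 stood at 1.75 and 3.21 TPM in the EtOH and 1.11 and 2.59 TPM in the OHT libraries (log2 fold change -0.30, SE 0.33, limma adjusted p = 0.806, and 0.08 without OHT replicate 1). In all 3 the groups overlapped.

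H2bc8 stood at 3.48 and 3.09 TPM in the EtOH and 3.36 and 4.54 TPM in the OHT libraries. H2bc11 stood at 2.13 and 3.42 TPM in the EtOH and 5.03 and 1.15 TPM in the OHT libraries. H2bc3 stood at 2.61 and 1.58 TPM in the EtOH and 1.44 and 2.96 TPM in the OHT libraries. These 3 rows overlapped between groups as well. Of the 8 H2B rows under 1 TPM, led by H2bc15, H2bc14 and H2bc7, 2 were higher and 3 were lower in both OHT libraries, beside 17.2% and 14.6% of all rows. H2bc1 was listed at 0 in every library.

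H3 and H4 form the tetramer at the centre of the nucleosome. In the H3 class most rows lay on the higher side. H3c10 stood at 8.78 and 12.6 TPM in the EtOH and 24.1 and 19.6 TPM in the OHT libraries (log2 fold change 0.98, SE 0.22, limma adjusted p = 0.265). H3c15 stood at 2.03 and 2.64 TPM in the EtOH and 7.44 and 7.51 TPM in the OHT libraries (log2 fold change 1.35, SE 0.19, limma adjusted p = 0.110). H3c14 stood at 2.41 and 2.45 TPM in the EtOH and 4.66 and 5.04 TPM in the OHT libraries (log2 fold change 0.77, SE 0.17, limma adjusted p = 0.265). None of the 3 overlapped between groups. H3c14 and H3c15 lie in the chromosome 3 cluster and together gave 4.44 and 5.09 TPM in the EtOH and 12.1 and 12.6 TPM in the OHT libraries. Of the words of the H3c14 transcript 100% occur in a gene with no row among the deposited values. For H3c15 this share was 64.2%. The sum of H3c14 and H3c15 leaves out reads given to such a gene, and the division of these reads was not tested.

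H3c10 shares 94.2% of its 31-base words with other genes. H3c11 was listed at 0 in EtOH replicate 2 and stood at 3.72 TPM in EtOH replicate 1, against 2.82 and 6.81 TPM in the OHT libraries. The sum of H3c10 and H3c11 was 12.5 and 12.6 TPM in the EtOH and 26.9 and 26.4 TPM in the OHT libraries, a ratio of 2.12, so the replicates of each group were closer in the sum than in either row. H3c6 stood at 2.03 and 1.59 TPM in the EtOH and 4.04 and 2.88 TPM in the OHT libraries, and H3c4 at 1.19 and 2.28 TPM in the EtOH and 2.70 and 2.55 TPM in the OHT libraries. Both were higher in both OHT libraries, with limma adjusted p-values of 0.370 and 0.592.

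H3c8 stood at 10.04 and 10.7 TPM in the EtOH and 10.6 and 13.02 TPM in the OHT libraries. H3c3 stood at 4.47 and 4.66 TPM in the EtOH and 8.67 and 4.15 TPM in the OHT libraries. H3c2 stood at 2.56 and 4.28 TPM in the EtOH and 3.32 and 3.28 TPM in the OHT libraries. These rows and H3c1, with 1.68 and 1.53 TPM in the EtOH and 5.17 and 1.32 TPM in the OHT libraries, overlapped between groups. The H3 rows under 1 TPM were H3c13, lower in both OHT libraries (1.22 and 1.09 against 0.792 and 0.522 TPM), and H3c7, which overlapped.

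H4 had 3 of 12 rows higher in both OHT libraries (25.0%) and 0 lower, beside 17.2% and 14.6% of all rows. Of rows above 0 in a library 21.6% were higher, so the higher share of H4 was near the background. H4c9, the main H4 row, stood at 21.8 and 19.6 TPM in the EtOH and 31.5 and 23.6 TPM in the OHT libraries (log2 fold change 0.38, limma adjusted p = 0.531). H4c8 stood at 5.19 and 4.22 TPM in the EtOH and 10.4 and 6.48 TPM in the OHT libraries (log2 fold change 0.70, limma adjusted p = 0.430). H4c4 stood at 0.978 and 1.03 TPM in the EtOH and 1.78 and 1.55 TPM in the OHT libraries (log2 fold change 0.41, limma adjusted p = 0.465). The first 2 differed more between OHT libraries than between EtOH libraries. H4c2 stood at 5.29 and 3.93 TPM in the EtOH and 2.76 and 4.67 TPM in the OHT libraries, and its log2 fold change was -0.27 with an SE of 0.26 (limma adjusted p = 0.783) and 0.03 without OHT replicate 1.

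H4c18 stood at 6.61 and 2.43 TPM in the EtOH and 5.18 and 5.24 TPM in the OHT libraries. H4c12 stood at 4.50 and 3.68 TPM in the EtOH and 2.70 and 6.49 TPM in the OHT libraries. H4c1 stood at 1.60 and 3.02 TPM in the EtOH and 5.92 and 1.91 TPM in the OHT libraries. These rows overlapped between groups, as did the remaining pair. H4c6 stood at 0.899 and 2.69 TPM in the EtOH and 4.03 and 1.69 TPM in the OHT libraries, and H4c11 at 1.90 and 1.20 TPM in the EtOH and 1.59 and 0.965 TPM in the OHT libraries. Of the 3 H4 rows under 1 TPM, H4c3 and H4c14 overlapped and H4c17 was listed at 0 in every library. In all, 20 of the 64 rows had means under 1 TPM, and among them 4 were higher and 4 lower in both OHT libraries (20.0% each). These shares were near those of all rows (17.2% and 14.6%) and of rows above 0 in a library (21.6% and 18.3%).

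**Figure D3:**
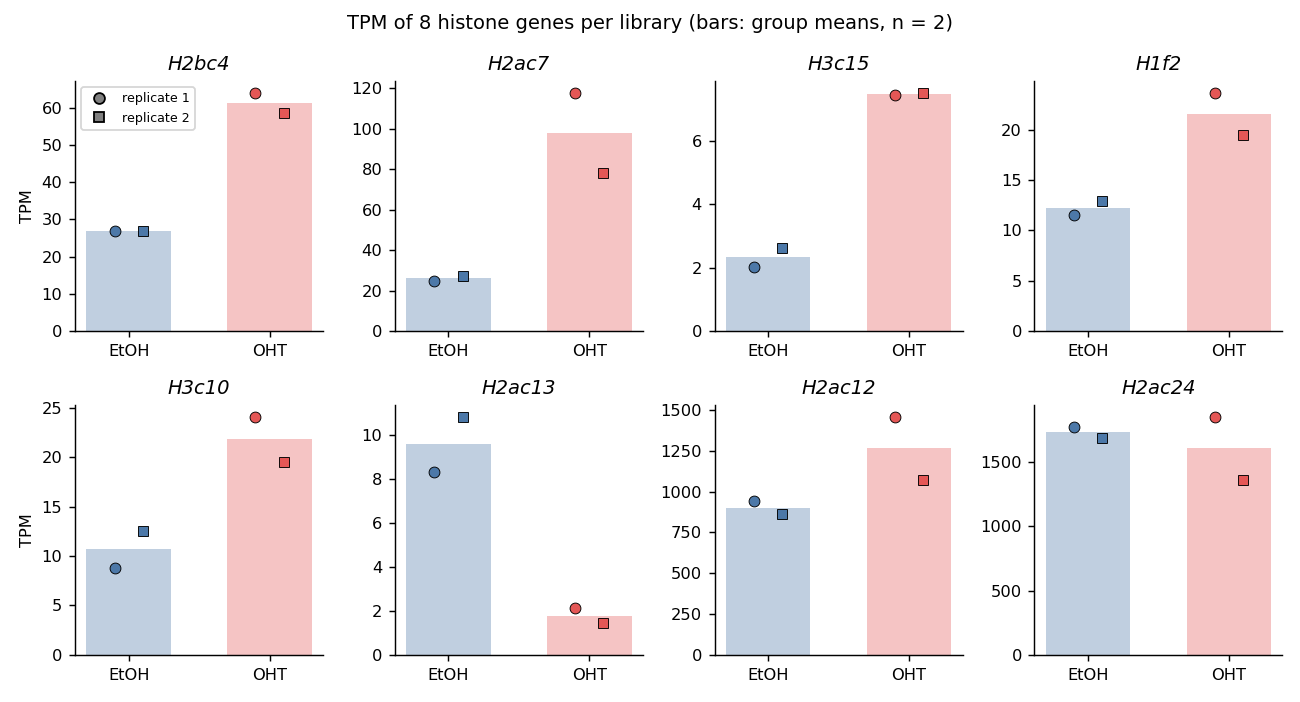
TPM of 8 histone genes in each library (points; circles replicate 1, squares replicate 2), with bars at the group means of 2 libraries and a separate linear axis from 0 for each gene. H2bc4, H2ac7, H3c15, H1f2, H3c10 and H2ac12 lie higher in both OHT libraries and H2ac13 lower, while H2ac24 overlaps (1768 and 1688 against 1851 and 1358 TPM).

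The annotated 3′ end differed among the genes, and poly(A) selection makes it relevant to what was captured. In 23 rows the annotated transcript ended within 100 bases of the stem-loop, as in H2ac24, with 3 bases after it, and H2ac7, with 42. In 20 rows the annotation ran further, as in H4c9 with 330 bases, H3c15 with 377 and H1f2 with 840 and 2 poly(A) signals (AATAAA or ATTAAA). In 21 rows no stem-loop was found, as in H2ac12, whose annotated transcript of 405 bases ends 2 bases after the stop codon. Of the rows that ran further, 11 of 20 were higher in both OHT libraries and 0 lower. Of those that ended near the stem-loop, 5 were higher and 3 lower, and of those without a match 6 were higher and 3 lower, beside 17.2% and 14.6% of all rows. The tested rows had median log2 fold changes of 0.45 (12 rows), 0.16 (19 rows) and 0.15 (13 rows) in that order. The difference between these groups of rows was not tested, because the rows share reads, libraries and clusters.

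**Figure D4:**
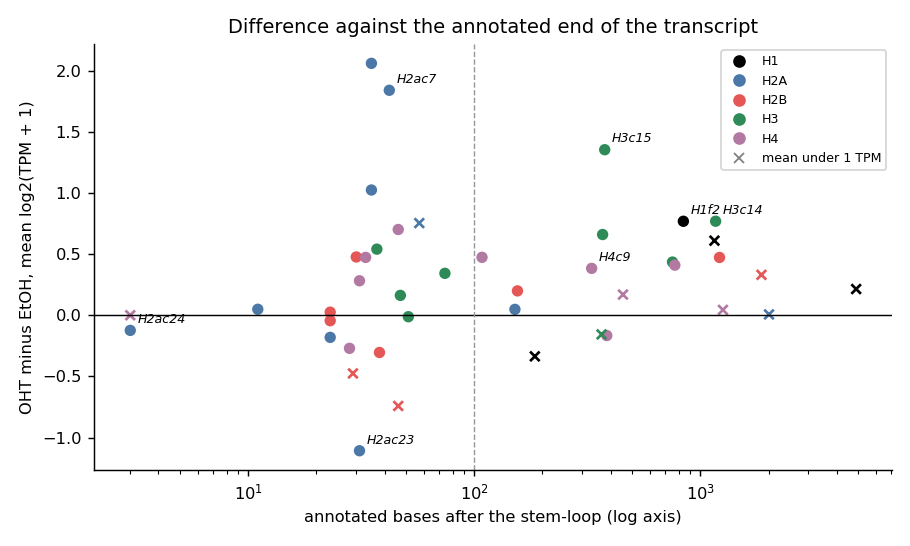
Difference between the OHT and EtOH means of log2(TPM + 1) against the number of annotated bases after the stem-loop (log axis) for the 43 histone genes with a match, coloured by class, with crosses for rows under 1 TPM and a dashed line at 100 bases. Rows on both sides of the line reach high values, H2ac7 with 42 bases and H3c15 with 377, and the 3 rows with a match that are lower in both OHT libraries lie left of the line.

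Sharing of sequence moved with the same result. In 23 rows under 50% of the 31-base words occur in transcripts of other genes. Of these rows 11 were higher in both OHT libraries (47.8%) and 0 lower, beside 17.2% and 14.6% of all rows. The 13 of these rows that were tested had a median log2 fold change of 0.42. Of the 41 rows with at least 50% of words shared, 11 were higher (26.8%) and 6 lower (14.6%). The share of lower rows there was the same as over all rows. Thus all 6 rows lower in both OHT libraries were rows with most of their words found in other genes, counted over all of those genes together. The part of shared sequence in these values was not tested.

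Many H2A and H2B genes stand head to head, with a promoter region between them, and 12 such pairs had start sites at most 400 bases apart. Their members did not move as pairs in all cases. H2ac7 and H2bc7 start 185 bases apart, yet H2ac7 was higher in both OHT libraries while H2bc7 was lower, at 1.22 and 0.893 TPM in the EtOH and 0.669 and 0.304 TPM in the OHT libraries. H2bc4 and H2ac6 start 251 bases apart, and H2ac6 overlapped at 0.642 and 0.424 TPM in the EtOH and 0.260 and 0.874 TPM in the OHT libraries. H2ac12 and H2bc12, 302 bases apart, were both higher in both OHT libraries, at levels that differed widely. H2ac23 was lower and its partner H2bc23 higher, H2ac13 lower and H2bc13 overlapping, and H2bc24 lower and H2ac24 overlapping. In the other 6 pairs both members overlapped between groups.

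Promoter windows were read to show what the members share upstream, since the rule for membership used only names. Of the 64 genes, 58 had an entry in the RefSeq promoter table (GRCm38.p6), and the 150 bases before the start were searched on both strands. CCAAT, the sequence bound by the NF-Y factor, occurred in 48 of 58 histone windows (82.8%) against 24.5% of 32851 windows of all genes. By class it occurred in 6 of 6 H1, 17 of 17 H2A, 14 of 14 H2B, 8 of 10 H3 and 3 of 11 H4 windows. TATAAA occurred in 39.7% against 7.57%. ATTTGCAT, the octamer bound by POU factors such as OCT1, occurred in 6 of 14 H2B and 4 of 17 H2A windows and in 0 of the others, 17.2% in all against 0.998%. AAACACA, known from H1 promoters, occurred in 5 of 6 H1 windows and 13.8% of all histone windows against 3.53%. A match describes letters and does not show that a factor binds. The windows of H2ac7, H1f2 and H3c15 are printed because these genes were higher in both OHT libraries and hold 4, 1 and 0 copies of CCAAT, a choice made after their values were seen, with CCAAT, its reverse complement ATTGG and AAACACA in capitals.
H2ac7 at chr13:23574231-23574380, plus strand: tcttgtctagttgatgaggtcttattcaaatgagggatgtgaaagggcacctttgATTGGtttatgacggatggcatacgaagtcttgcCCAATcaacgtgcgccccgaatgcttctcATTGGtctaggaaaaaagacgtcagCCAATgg
H1f2 at chr13:23738657-23738806, plus strand: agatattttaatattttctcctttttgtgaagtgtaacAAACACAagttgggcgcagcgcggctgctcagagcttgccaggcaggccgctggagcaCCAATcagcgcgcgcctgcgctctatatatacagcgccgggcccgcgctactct
H3c15 at chr3:96239128-96239277, minus strand: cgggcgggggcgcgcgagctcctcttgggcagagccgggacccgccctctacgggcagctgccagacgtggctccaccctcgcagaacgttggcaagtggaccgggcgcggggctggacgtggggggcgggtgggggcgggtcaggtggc

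Genes that act on histone mRNA were read from lists chosen with earlier results of these data known, and 0 genes of these lists passed the limma threshold. Of 25 tested genes for 3′ end processing and turnover, 1 was higher and 2 lower at an unadjusted limma p under 0.05. Of all tested genes 6.02% were higher and 4.46% lower at that level. The median log2 fold change of the list was -0.09, and it was -0.03 without OHT replicate 1 and -0.16 without OHT replicate 2. Slbp, which holds the stem-loop, stood at 126 and 123 TPM in the EtOH and 99.6 and 93.1 TPM in the OHT libraries, a log2 fold change of -0.37 (limma adjusted p = 0.318), opposite in sign to the histone median. Ncbp2, the small subunit of the cap-binding complex, stood at 68.5 and 66.7 TPM in the EtOH and 50.1 and 49.6 TPM in the OHT libraries (log2 fold change -0.43, limma adjusted p = 0.291). Lsm10, of the U7 particle, stood at 17.8 and 17.7 TPM in the EtOH and 23.1 and 22.8 TPM in the OHT libraries (log2 fold change 0.35, limma adjusted p = 0.457). Its partner Lsm11 stood at 6.83 and 6.92 TPM in the EtOH and 6.32 and 6.34 TPM in the OHT libraries. Thus Slbp and Ncbp2 were lower and Lsm10 higher in both OHT libraries, each by less than the fold of the leading histone rows. Srrt, which links the cap-binding complex to processing, stood at 195 and 193 TPM in the EtOH and 174 and 173 TPM in the OHT libraries.

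Of 14 tested genes for transcription of histone genes, 0 were higher and 2 lower at an unadjusted limma p under 0.05, beside 6.02% and 4.46% of all tested genes. The median log2 fold change of the list was 0.00373, and it was 0.20 without OHT replicate 1 and -0.21 without OHT replicate 2. Npat, the activator that gathers at the histone clusters, stood at 14.2 and 16.6 TPM in the EtOH and 13.6 and 23.3 TPM in the OHT libraries. Casp8ap2, a partner in the same nuclear bodies, stood at 18.7 and 22.4 TPM in the EtOH and 15.9 and 25.8 TPM in the OHT libraries. Both varied more between the OHT libraries than between groups. Ccne2, the cyclin that acts with CDK2 at the start of S phase, stood at 21.6 and 22.96 TPM in the EtOH and 14.4 and 15.4 TPM in the OHT libraries (log2 fold change -0.55, limma adjusted p = 0.314). Cdc25a stood at 55.5 and 56.6 TPM in the EtOH and 39.1 and 48.5 TPM in the OHT libraries, so these cell cycle genes were lower in both OHT libraries.

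Of 38 S phase and replication genes, 0 were higher and 9 lower at an unadjusted limma p under 0.05, beside 6.02% and 4.46% of all tested genes. In both OHT libraries 24 of the 38 were lower and 0 higher, beside 19.4% and 23.1% of tested genes. The median log2 fold change of the list was -0.17, and it was -0.09 without OHT replicate 1 and -0.27 without OHT replicate 2. Orc6 stood at 217 and 211 TPM in the EtOH and 162 and 155 TPM in the OHT libraries (limma adjusted p = 0.262). Pold1 stood at 52.1 and 52.04 TPM in the EtOH and 35.98 and 41.9 TPM in the OHT libraries, and Prim1 at 86.5 and 86.1 TPM in the EtOH and 65.1 and 71.7 TPM in the OHT libraries. So the genes of this list leaned to the other side from the histone rows. The part of the cell cycle in the histone values was not tested. Of 20 G2 and mitosis genes, 0 had an unadjusted limma p under 0.05, and their median of -0.05 was 0.07 without OHT replicate 1 and -0.16 without OHT replicate 2.

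Replacement histones are made outside S phase from ordinary polyadenylated mRNAs. Of 13 tested, 2 were higher and 0 lower at an unadjusted limma p under 0.05, beside 6.02% and 4.46% of all tested genes. In both OHT libraries 8 of the 13 were higher, beside 23.1% of tested genes. The median of the list was 0.10, and it was 0.17 without OHT replicate 2. H1f0, the replacement linker histone, stood at 24.8 and 24.01 TPM in the EtOH and 36.98 and 43.3 TPM in the OHT libraries (log2 fold change 0.69, limma adjusted p = 0.234). Macroh2a2 stood at 15.4 and 16.96 TPM in the EtOH and 21.8 and 25.5 TPM in the OHT libraries (log2 fold change 0.52, limma adjusted p = 0.362). H2aj stood at 179 and 175 TPM in the EtOH and 270.4 and 189.7 TPM in the OHT libraries. In H1f0 the log2 fold change was thus near that of H1f2. Of 22 histone chaperones, 0 were higher and 4 lower at an unadjusted limma p under 0.05, beside 6.02% and 4.46% of all tested genes. The median of the chaperones was -0.09, and it was -0.01 without OHT replicate 1 and -0.22 without OHT replicate 2. Nap1l1, a carrier of H2A and H2B, stood at 1038 and 1049.8 TPM in the EtOH and 741 and 820.1 TPM in the OHT libraries (log2 fold change -0.42, limma adjusted p = 0.255). Of 20 poly(A) tail and cleavage factors, 0 were higher and 3 lower at that level, beside the same shares of all tested genes. The median of these factors was -0.11, and it was 0.11 without OHT replicate 1 and -0.26 without OHT replicate 2. Pabpn1, the nuclear poly(A) binding protein, stood at 489 and 468 TPM in the EtOH and 405 and 417 TPM in the OHT libraries.

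**Figure D5:**
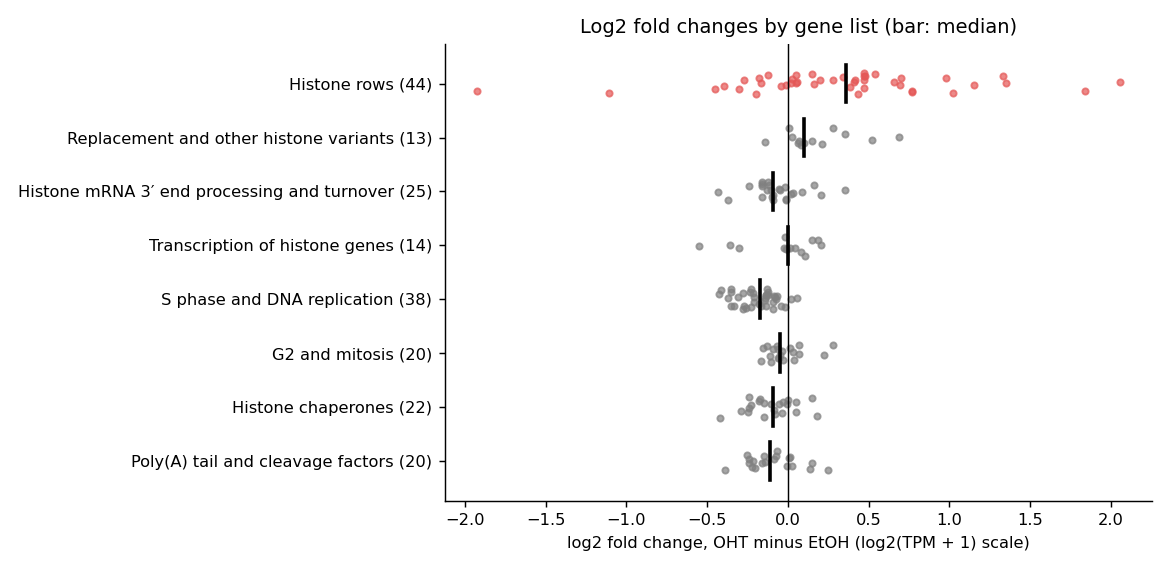
Log2 fold changes of OHT minus EtOH on the log2(TPM + 1) scale for the tested genes of 8 lists (one point per gene, spread vertically for legibility), with a bar at each median and the number of genes in brackets. The histone rows have the highest median (0.36) and the widest spread, and the S phase list the lowest median (-0.17).

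Transcript length moved with the difference between the OHT libraries, and histone transcripts are short. Across 12016 genes, which are not independent replicates, OHT replicate 1 minus replicate 2 on the log2(TPM + 1) scale correlated with log2 transcript length at a Pearson r of -0.529 and a Spearman rho of -0.581. For the EtOH libraries these were -0.268 and -0.361. The 44 histone rows had a median length of 529 bases, and their median difference from the EtOH mean was 0.48 in OHT replicate 1 and 0.30 in replicate 2. The other 314 tested genes of at most 800 bases had medians of 0.11 and -0.07, and the genes over 800 bases -0.10 and 0.15. By their medians, the histone rows thus lay above the EtOH mean in both OHT libraries and the other short genes in replicate 1 alone. With a trend of length and GC content removed from each library, 23 histone rows were higher and 7 lower in both OHT libraries in place of 22 and 6. The shares over all rows were not counted after this removal, so these counts have no background. At an unadjusted limma p under 0.05, 17 of the 44 histone rows were then higher and 2 lower. Of the 12029 genes 1265 were higher and 1392 lower at that level, in place of 724 and 536. In that fit 4 rows passed the limma threshold: H2bc4 (adjusted p = 0.0116), H2ac7 (0.0226), H2ac13 (0.0231) and H3c15 (0.0397), and 127 of the 12029 genes passed in all. The H2A sum then no longer overlapped, at 2725 and 2643 with EtOH and 3273 and 2845 with OHT.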

How the data were processed

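Poly(A)-selected RNA from 2 EtOH and 2 OHT libraries was prepared with NEBNext kits, per the labels' protocols. Strand is not mentioned there. The authors deposited TPM per gene, and per the submitters' processing notes they used Trim Galore, Salmon and the build GRCm38 (mm10). The annotation release is not stated, nor is the way in which reads shared by several genes were divided. In addition, 2 columns of the table match no sample and were not used.

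OHT was compared with EtOH by limma (version 3.58.1, R 4.3.3) on log2(TPM + 1) with a mean-variance trend, two-sided, over genes whose mean reached 1 TPM, with Benjamini-Hochberg adjustment and a threshold of 0.05. A fold change on this scale understates the change of low rows. The script was tested on simulated data. The histone members, the related lists and the rule for named genes were chosen with earlier results of these data known. Each row of at least 1 TPM is named with its values, and full statistics are kept for the 6 rows with the smallest p in each direction. From each related list, the genes with the smallest p and a few fixed genes are named. Stem-loops, shared 31-base words and start sites came from GENCODE release 21, where all 64 histone rows matched, and promoters from RefSeq. Alternatives covered the pseudocount, the minimum, the scaling, length and GC trends, limma's options, a replicate block, each library left out and sums without the highest rows.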

Additional observations from a re-analysis of the deposited data

How the results depend on the processing

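Of 173 alternatives for the 12 histone rows given in full, 135 kept direction and side of the threshold, 33 passed it where the reported fit did not, and 5 turned direction: without EtOH replicate 2, H2bc13 and H2bc22, and without OHT replicate 1, H2bc18, H4c2 and H2bc22. With a library left out, the log2 fold change ran from -0.936 to 0.0404 for H2bc13, -0.831 to 0.0344 for H2bc18, -0.566 to 0.025 for H4c2 and -0.687 to 0.078 for H2bc22, which was 0.000835 without EtOH replicate 2. The count of histone rows past the threshold was 4 with length and GC trends removed and 3 to 17 with a library left out, in place of 0. The higher count at an unadjusted p under 0.05 was 8 with a minimum of 5 TPM (16 rows), 9 after quantile normalization and 8 to 23 with a library left out. The lower count was 6 of 62 rows with no minimum, beside 840 of 17757 genes. With a minimum of 5 TPM it was 1 of 16 rows, beside 423 of 9151 genes. The median was 0.15 with a pseudocount of 5 and 0.18 with no minimum, and 0.30 to 0.48 with a library left out. Over all genes the count past the threshold was 0 with no minimum, 3 with median of ratios scaling, 3 after quantile normalization, 3 without the trend, 127 with length and GC trends removed and 34 to 2957 with a library left out. In the related lists it was 0 to 65 with a library left out. A group left with 1 library is assumed there to vary like the other group.

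Log2 ratios of class sums without the highest row were 0.53 for H2A, 0.13 for H2B and 0.62 for H3. Without the 2 highest rows, an alternative chosen after seeing the data, they were 0.64 for H1, 0.92 for H2A and -0.0876 for H2B. Without the 3 highest rows, chosen likewise, they were 0.56 for H1, 0.22 for H2A, 0.0286 for H2B, 0.85 for H3 and 0.24 for H4. With a library left out they ran from 0.69 to 0.93 for H1, -0.0871 to 0.37 for H2A, 0.62 to 0.79 for H2B, 0.65 to 0.81 for H3 and 0.22 to 0.54 for H4. Apart from settings that leave out rows or libraries, the cause of these shifts was not tested.

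With the replicate number as a block, 13 histone rows, 474 genes and 3 genes of the related lists passed the threshold. In that fit 22 of the 44 histone rows were higher at an unadjusted limma p under 0.05, beside 978 of all 12029 genes. The labels do not pair the numbers. Across genes, EtOH replicate 1 minus 2 and OHT replicate 1 minus 2 correlated at a Pearson r of 0.29, with 1 residual degree of freedom left in the blocked fit. There, and in the fits without an EtOH library, limma took the variance of each gene wholly from the mean-variance trend. The calls of those fits thus do not reflect the scatter of the single gene. Depth is unknown for TPM, so no limit from counting can be set on the rows under 1 TPM.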
